A study of Equus caballus with 45 samples.

Results

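Hyaluronan is the long polysaccharide that gives joint fluid its viscosity and holds water in cartilage matrix, and it is made at the plasma membrane by the hyaluronan synthases HAS1, HAS2 and HAS3. TNFAIP6 encodes TSG-6, a secreted protein induced by inflammatory cytokines that binds hyaluronan and transfers the heavy chains of inter-alpha-inhibitor onto it. PRG4 encodes lubricin, the boundary lubricant of cartilage, and HYAL2 a hyaluronidase. These 6 genes were looked up by symbol in the gene tables of mesenchymal stromal cells (MSC) and of 3 joint cell types from the horse. HAS1, HAS2, HAS3 and TNFAIP6 were found in both tables, so 4 of 6 genes are described, out of 20881 genes in all. PRG4 and HYAL2 were not found under those symbols and were not analysed here; 3970 genes carried an Ensembl identifier without a symbol.

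Bulk RNA sequencing covered 45 libraries in 19 conditions. MSC grown from equine bone marrow were left untreated or were exposed for 2 h to the TLR3 agonist polyinosinic:polycytidylic acid (poly I:C) or the STING agonist 2'3'-cGAMP, and a further set was labelled CpG, with 3 libraries per condition from donors named 92, 99 and PC. The labels give both agonists at 10 ng/ml, whereas the methods of the study give the same figure in µg/mL. Medium conditioned by untreated MSC (resting MSC-CM), by TLR3-activated MSC (TLR-MSC-CM) or by STING-activated MSC (STING-MSC-CM) was mixed 1:3 with culture medium and put for 24 h on synoviocytes, chondrocytes and monocyte-derived macrophages that also received the cytokines IL-1β and TNF-α, and the cells were kept for 24 h more after a wash. Cytokines were used at 20 ng/ml on the synoviocytes and chondrocytes, and for the macrophages the labels give 10 ng/ml and the methods 20. The abstract of the study differs on timing, with cytokines for 2 h, then a wash, then conditioned medium for 24 h. Each joint cell type had 3 libraries for each medium, named for donors PC, ORC and AG1, plus 1 library with cytokines alone and 1 with no cytokines.

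Several limits of these cells as a model are set by the design. The overview of the study gives 1 healthy horse as the source of the joint cells. The names PC, ORC and AG1 were therefore read as donors of the medium, and are used so below. On that reading the 3 libraries of a group differ in the medium they received and not in the animal. Comparisons of cell types then hold no spread between animals. The labels do not settle this, since titles of libraries without MSC-CM also carry the name ORC or PC, and the reading was not tested. The reading also conflicts with the study's account of 3 MSC donors in all, whose MSC replicates are named PC, 99 and 92. ORC and AG1 would then be further donors. Every library that received MSC-CM had also received cytokines, and only PC names a donor both of sequenced MSC and of medium. On the reading used here, p-values measure the spread between these media, cultures or MSC donors.

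Library totals ran from 23525704 to 54103873 counts, so a count of 3, used here as the floor of detection, was worth 0.0554 to 0.128 CPM. CPM is the count of a gene as a share of its library total, scaled up to a fixed sum; intervals and floors cover counting error only, since reads are not independent molecules. The labelled joint cell types were checked against marker genes. Macrophage markers summed to 8587 to 10001 CPM in macrophages against 12.6 to 19.6 in synoviocytes and 11.1 to 40.5 in chondrocytes. Chondrocyte markers summed to 159 to 767 CPM in chondrocytes and to 146 to 338 in synoviocytes, and COL9A1 was at 0 in the chondrocytes given resting MSC-CM. The summed levels of these 2 cell types thus overlapped, whereas the mean log2(CPM + 1) of the 8 chondrocyte markers did not, at 2.42 to 3.82 in chondrocytes and 1.72 to 2.16 in synoviocytes. Markers of synovial fibroblasts summed to 68608 to 84773 CPM in synoviocytes and 42989 to 76824 in chondrocytes. The lists did not set MSC apart as clearly. In MSC, chondrocyte markers summed to 223 to 875 CPM and macrophage markers to 9.46 to 324. The 4 positive MSC markers summed to 606 to 1895 CPM in MSC and 1381 to 1935 in macrophages. The 2 negative MSC markers were at 0 to 1.54 CPM in MSC and 1086 to 1577 in macrophages.

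Libraries that stood apart bear on the values below. In chondrocytes, the 3 libraries with medium of donor ORC had summed levels of 12 IL-1 and TNF response genes (among them IL6, CXCL8, MMP13 and PTGS2) of 15546 to 20834 CPM, whereas the 6 with medium of donors PC and AG1 had 44324 to 65773. In MSC, the summed level of 9 interferon-response genes was 93.7 to 117 CPM without agonist, 3263 and 6258 CPM with poly I:C in donors 99 and PC, but 85.5 CPM in the library labelled poly I:C of donor 92. Values without the libraries of donor ORC (joint cells) or donor 92 (MSC) are given beside the results they move most; both omissions were chosen after the data had been seen.

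**Figure D1:**
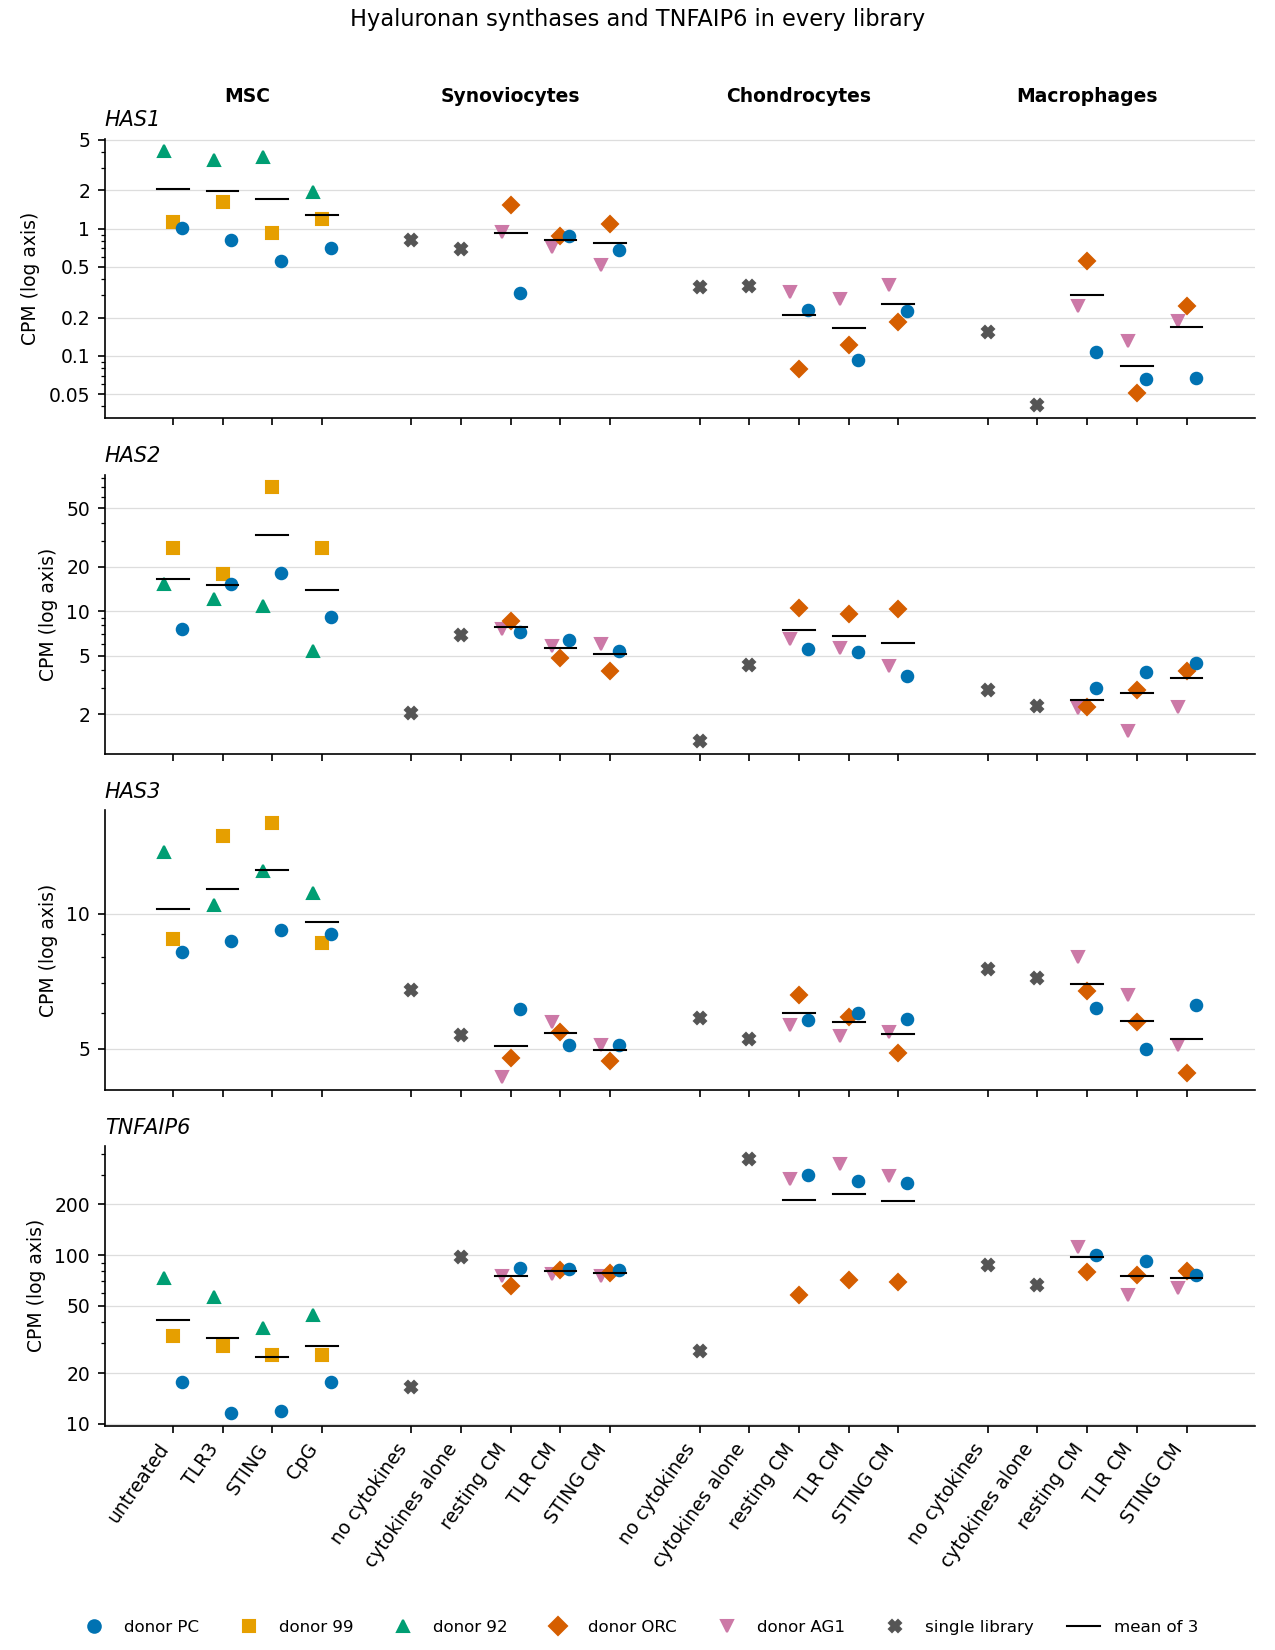
CPM (log axis) of HAS1, HAS2, HAS3 and TNFAIP6 in each of the 45 libraries, by cell type and condition; symbols mark the donor of the MSC or of the medium, and the short black line is the mean of 3 libraries. TNFAIP6 in chondrocytes with medium of donor ORC sits at 57.9 to 71.2 CPM, below the 267 to 347 CPM with medium of the other donors, and the grey crosses of synoviocytes and chondrocytes without cytokines are the lowest TNFAIP6 values in those cells.

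TNFAIP6 was detected in every library, and its level spread furthest in chondrocytes. In chondrocytes given resting MSC-CM it stood at 283 CPM (medium of AG1), 57.9 (ORC) and 299 (PC). With TLR-MSC-CM the values were 347, 71.2 and 274 CPM, and with STING-MSC-CM they were 296, 69.2 and 267 CPM, in the same order of donors. The ORC library was thus the lowest under each of the 3 media, and the ranges under the 3 media overlapped. In synoviocytes TNFAIP6 lay between 65.5 and 84.2 CPM in all 9 libraries with medium, and in macrophages between 58.1 and 112 CPM. Fewer cells of a kind and less RNA per cell cannot be told apart in such bulk samples.

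In the MSC themselves TNFAIP6 was 72.7, 33.02 and 17.6 CPM without agonist in donors 92, 99 and PC. With poly I:C it was 56.4, 28.9 and 11.6 CPM, and with 2'3'-cGAMP 36.8, 25.7 and 11.98 CPM, so it was lower than in the untreated cells in 3 of 3 donors with either agonist. The poly I:C library of donor 92 is the one that lacked the interferon response. With CpG TNFAIP6 was 44.0, 25.6 and 17.8 CPM, so it was also lower than in untreated cells in donors 92 and 99, though not in PC. The donors kept the order 92, 99, PC in each of the 4 conditions, and the ranges of the conditions overlapped.

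HAS2, the synthase that makes most of the hyaluronan in many mesenchymal cells, was highest in MSC of donor 99. It stood there at 26.7 CPM untreated, 17.9 with poly I:C, 69.5 with 2'3'-cGAMP and 26.96 with CpG. Donor 92 gave 15.3, 12.2, 10.8 and 5.40 CPM in these conditions, and donor PC 7.52, 15.3, 18.2 and 9.19 CPM. With 2'3'-cGAMP it was therefore higher than in untreated cells in donors 99 and PC and lower in donor 92.

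Mean HAS2 was lower in every joint-cell group than in every MSC group, which was not tested. Single libraries overlapped, from 5.40 CPM upward in MSC and up to 10.5 CPM in joint cells. In synoviocytes it was 7.61, 8.52 and 7.20 CPM with resting MSC-CM of AG1, ORC and PC, 5.79, 4.81 and 6.34 CPM with TLR-MSC-CM, and 6.01, 3.93 and 5.38 CPM with STING-MSC-CM. Values with resting MSC-CM lay above those with TLR-MSC-CM and above those with STING-MSC-CM. Such a separation in that direction was found for 4.96% and 5.17% of all genes tested. In chondrocytes the ORC libraries were the highest under each medium, at 10.5, 9.54 and 10.3 CPM with resting, TLR- and STING-MSC-CM. The AG1 libraries held 6.47, 5.67 and 4.27 CPM and the PC libraries 5.54, 5.27 and 3.61 CPM in that order of media. Macrophages held 1.53 to 4.47 CPM.

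HAS3, the third isoform, was the most even of the 4 genes. It ranged from 4.33 to 6.76 CPM over the 11 synoviocyte libraries, from 4.90 to 6.59 CPM over the 11 chondrocyte libraries and from 4.41 to 8.02 CPM over the 11 macrophage libraries. In MSC it was 8.20 to 15.9 CPM, all of them above the highest joint-cell value.

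HAS1 was close to the floor in chondrocytes and macrophages. MSC of donor 92 held 4.06, 3.50, 3.64 and 1.95 CPM when untreated and with poly I:C, 2'3'-cGAMP and CpG, while donors 99 and PC held 0.923 to 1.62 and 0.559 to 1.01 CPM. Synoviocyte libraries had 9 to 42 HAS1 counts each (0.310 to 1.54 CPM), chondrocyte libraries 2 to 15 counts and macrophage libraries 1 to 13. A change of HAS1 in chondrocytes or macrophages was hardly detectable at this depth.

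Over the 13 groups of 3 libraries the order of levels was gradual. TNFAIP6 went from 231 ± 143 CPM (SD, n = 3) in chondrocytes with TLR-MSC-CM down to 24.8 ± 12.4 in MSC with 2'3'-cGAMP, with the macrophage and synoviocyte groups between 73.5 ± 8.26 and 97.4 ± 16.6. HAS2 went from 32.8 ± 31.99 CPM in MSC with 2'3'-cGAMP down to 2.49 ± 0.463 in macrophages with resting MSC-CM. HAS3 went from 12.5 ± 3.37 CPM in MSC with 2'3'-cGAMP to 4.97 CPM in synoviocytes with STING-MSC-CM, and HAS1 from 2.07 ± 1.72 CPM in untreated MSC to 0.0826 ± 0.0433 in macrophages with TLR-MSC-CM. Neighbours in these orders overlapped in all 12 pairs for HAS1, HAS2 and TNFAIP6. For HAS3 they overlapped in 11 of 12, the exception being MSC with CpG, whose libraries all lay above those of macrophages with resting MSC-CM. MSC and joint cells are held in separate tables, so their levels are set side by side without a test.

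The libraries without MSC-CM compare cells with and without IL-1β and TNF-α, with 1 library per condition and hence no replicate check. TNFAIP6 was 372 CPM in chondrocytes with cytokines against 27.1 CPM without, a ratio of 13.8 (exact 95% interval 12.8 to 14.9). In synoviocytes it was 98.1 against 16.6 CPM, a ratio of 5.91 (5.38 to 6.50). In macrophages it was 66.5 against 87.3 CPM, a ratio of 0.762 (0.714 to 0.812). The cytokine library thus held more TNFAIP6 in the cells of mesenchymal origin and less in macrophages.

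HAS2 showed the same split at lower counts. Its ratio was 3.41 (2.56 to 4.602) in synoviocytes, from 2.02 to 6.89 CPM, and 3.29 (2.27 to 4.91) in chondrocytes, from 1.31 to 4.32 CPM. In macrophages the ratio was 0.781 (0.543 to 1.118), an interval that includes 1. HAS3 had ratios of 0.795 (0.640 to 0.984), 0.896 (0.724 to 1.11) and 0.957 (0.776 to 1.18) in synoviocytes, chondrocytes and macrophages. The HAS1 ratios of 0.840, 1.02 and 0.265 rest on 1 to 26 counts per library and have intervals that include 1. The intervals cover the sampling of reads and not the difference between cultures.

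**Figure D2:**
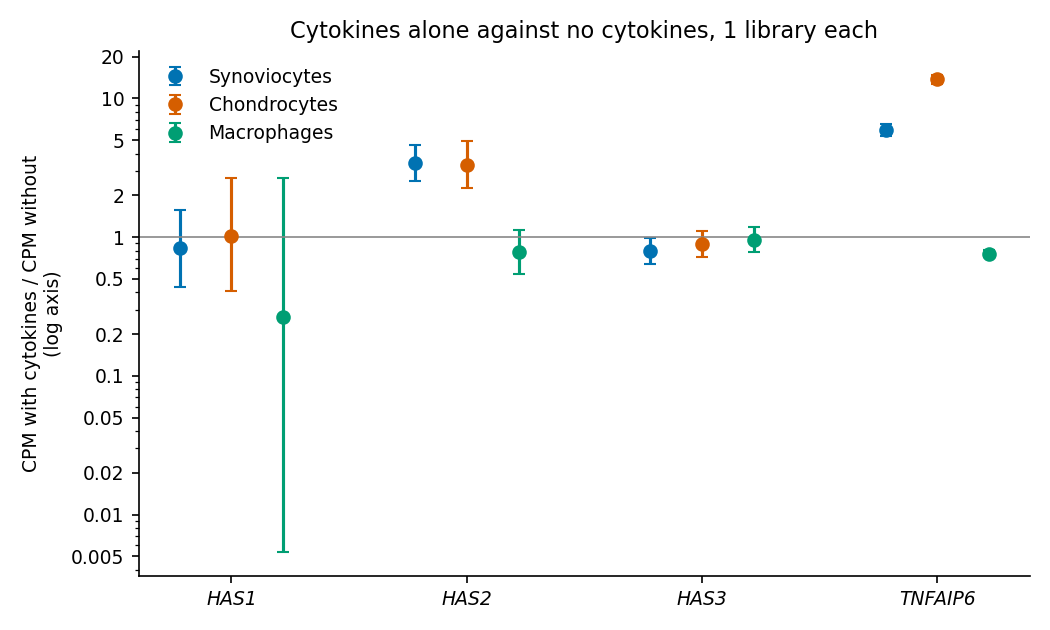
Ratio of the CPM with IL-1β and TNF-α alone to the CPM without cytokines (log axis), 1 library per condition, with exact 95% counting intervals. TNFAIP6 (13.8 and 5.91) and HAS2 (3.29 and 3.41) lie above 1 in chondrocytes and synoviocytes, and no ratio in macrophages lies above 1.

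In the libraries without MSC-CM, the level of the 12 IL-1 and TNF response genes moved with these values of TNFAIP6 and HAS2. Their mean log2(CPM + 1) was 6.14 in chondrocytes without cytokines and 10.2 with, and 5.84 and 8.09 in synoviocytes, but 7.93 and 7.82 in macrophages. Among the chondrocytes given medium, the mean was 7.69 to 8.27 with ORC medium, where TNFAIP6 was 57.9 to 71.2 CPM, and 9.56 to 10.2 with PC and AG1 medium, where TNFAIP6 was 267 to 347 CPM. HAS2 ran the other way there, at 9.54 to 10.5 CPM with ORC medium and 3.61 to 6.47 CPM with PC and AG1 medium. TNFAIP6 with cytokines alone was above all 9 libraries with MSC-CM in synoviocytes and in chondrocytes. HAS2 in all 9 libraries with MSC-CM was above the library without cytokines in both cell types. Since the control conditions hold 1 library each, the effect of adding MSC-CM to cytokines was not tested.

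**Figure D3:**
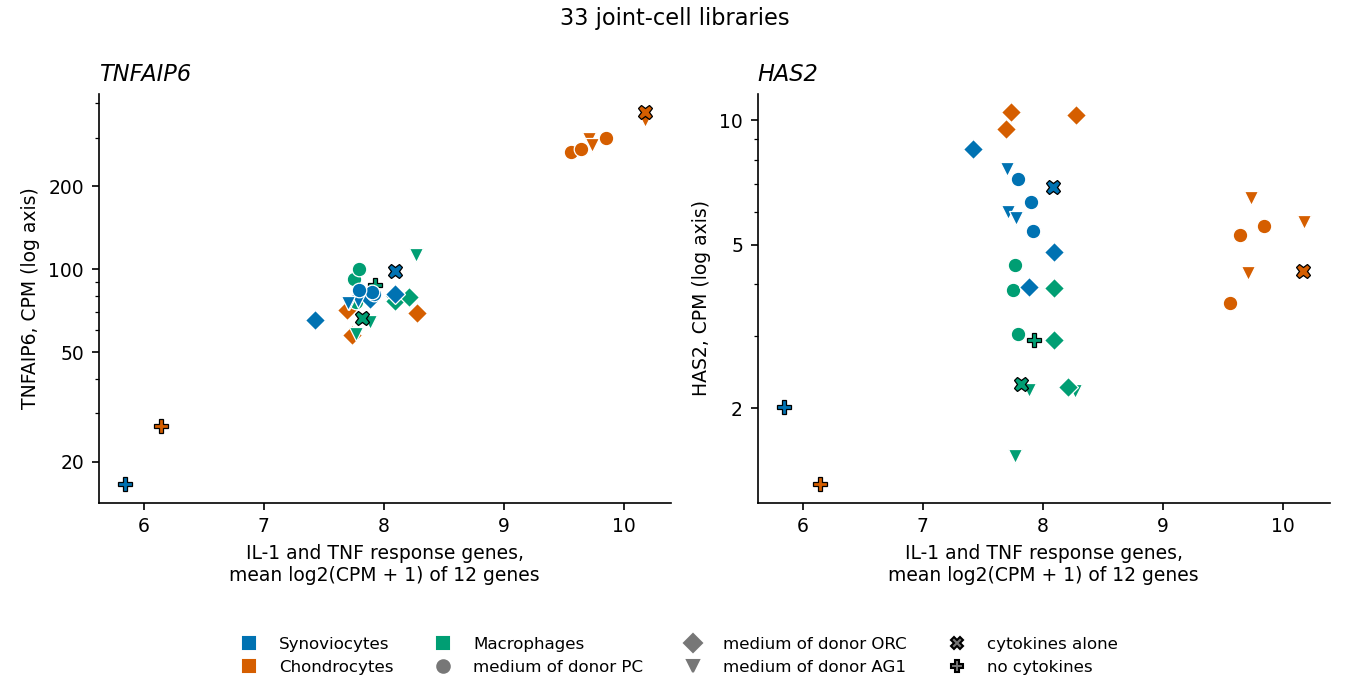
TNFAIP6 and HAS2 in CPM (log axis) against the mean log2(CPM + 1) of 12 IL-1 and TNF response genes in the 33 joint-cell libraries, 1 point per library. The chondrocyte libraries with ORC medium lie at 7.69 to 8.27 on the horizontal axis, between the library without cytokines (6.14) and the others (9.56 to 10.2), with TNFAIP6 in the same order and HAS2 highest in the ORC libraries.

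Whether activating the MSC, or treating joint cells with medium of activated MSC, moved these genes was tested with edgeR's quasi-likelihood test across all genes in 13 comparisons of 3 against 3 libraries. These fits held no term for the donor. In 52 tests of the 4 genes none passed an adjusted p of 0.05 (Benjamini-Hochberg over all genes). Over all genes 0% passed in each of the 13 comparisons. DESeq2 called none of the 4 genes either. Over all genes it called 48 with poly I:C and 93 with 2'3'-cGAMP against untreated MSC and 1 between the agonists, 2 in synoviocytes with TLR-MSC-CM, and 9 in macrophages with STING-MSC-CM against resting and 31 against TLR-MSC-CM, and none in the other 7 comparisons. With the donor as a block, edgeR also called none of the 4 genes. Over all genes it then called 2 with 2'3'-cGAMP against untreated MSC and 2 in chondrocytes with STING-MSC-CM against resting. In macrophages with STING-MSC-CM it called 80 against resting and 336 against TLR-MSC-CM, with none in the other comparisons. At an unadjusted p under 0.05 the edgeR test without the block held 5 of the 52 results.

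The largest of these by its ratio to the error was HAS2 in synoviocytes. It was lower by 0.60 on the log2 scale with STING-MSC-CM than with resting MSC-CM (log2 fold change -0.60, SE 0.16, unadjusted p = 0.00246, adjusted p = 0.634 by edgeR). With TLR-MSC-CM the log2 fold change was -0.45 (SE 0.16, unadjusted p = 0.0137, adjusted p = 0.494 by edgeR). HAS2 was lower in 3 of 3 donors in each comparison and the groups did not overlap, which held in that direction for 5.17% (STING-) and 4.96% (TLR-MSC-CM) of all genes tested. The share of genes at an unadjusted p under 0.05 was 7.60% and 10.0%. An exact two-sided permutation test of the log2(CPM + 1) values gave p = 0.1 for each, the smallest that 3 against 3 allows. These comparisons share the libraries with resting MSC-CM. Without the ORC libraries the log2 fold changes were -0.40 and -0.29 with STING- and TLR-MSC-CM.

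In chondrocytes HAS2 was also lower with STING-MSC-CM in 3 of 3 donors, by 0.32 on the log2 scale (SE 0.45, adjusted p = 1.00 by edgeR). The log2 fold change was -0.40 (SE 0.15, unadjusted p = 0.0151, adjusted p = 1.00) with the donor of the medium as a block, and -0.64 (SE 0.18, unadjusted p = 0.00381, adjusted p = 1.00) without the ORC libraries. In macrophages the CPM of HAS2 was higher with STING-MSC-CM in 3 of 3 donors (0.49, SE 0.37, adjusted p = 0.907 by edgeR). For AG1 the values were nearly equal, at 2.22 CPM with STING-MSC-CM and 2.20 with resting MSC-CM. Scaled by TMM over the joint-cell libraries, the AG1 order turned, with 2.15 and 2.17 CPM. These HAS2 values were picked out after they had been seen. Whether the change of HAS2 with STING-MSC-CM differed between macrophages and synoviocytes was tested as an interaction, with a difference of 1.09 (SE 0.55, unadjusted p = 0.0594, adjusted p = 1.00). Across 6 such interactions none of 24 tests of the 4 genes passed, none reached an unadjusted p of 0.05, and 0% of all genes passed.

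The other 3 results at an unadjusted p under 0.05 were in macrophages. TNFAIP6 was 112, 79.5 and 101 CPM with resting MSC-CM of AG1, ORC and PC and 64.3, 80.2 and 76.0 CPM with STING-MSC-CM, and the groups overlapped (log2 fold change -0.42, SE 0.19, adjusted p = 0.907). HAS3 was 8.02, 6.72 and 6.16 CPM against 5.09, 4.41 and 6.25 CPM, again with overlap (-0.42, SE 0.17, adjusted p = 0.907). HAS1 with TLR-MSC-CM came to -1.82 (SE 0.79, adjusted p = 0.999) from 4 to 13 counts against 2 to 5, and to -0.89 (unadjusted p = 0.379) without the ORC libraries. Without them TNFAIP6 and HAS3 with STING-MSC-CM had -0.61 and -0.33 (unadjusted p = 0.0427 and 0.189). Unadjusted p-values under 0.05 were found for 4.76% (STING-MSC-CM) and 2.13% (TLR-MSC-CM) of all genes in macrophages, so none of the 3 stands out from that many tests.

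In MSC none of the 4 genes reached an unadjusted p of 0.05, and the values here were likewise picked out after they had been seen. With 2'3'-cGAMP the log2 fold change of HAS2 was 1.00 (SE 0.71) and that of TNFAIP6 -0.74 (SE 0.68), and with poly I:C TNFAIP6 had -0.31 (SE 0.67). Without all libraries of donor 92, who had the highest TNFAIP6, these values were 1.37, -0.42 and -0.24 (unadjusted p = 0.157, 0.538 and 0.727), and 25 of all genes passed with poly I:C and 40 with 2'3'-cGAMP, none of them one of the 4. With the MSC donor as a block, TNFAIP6 with 2'3'-cGAMP had a log2 fold change of -0.64 (SE 0.16, unadjusted p = 0.00319, adjusted p = 0.189).

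**Figure D4:**
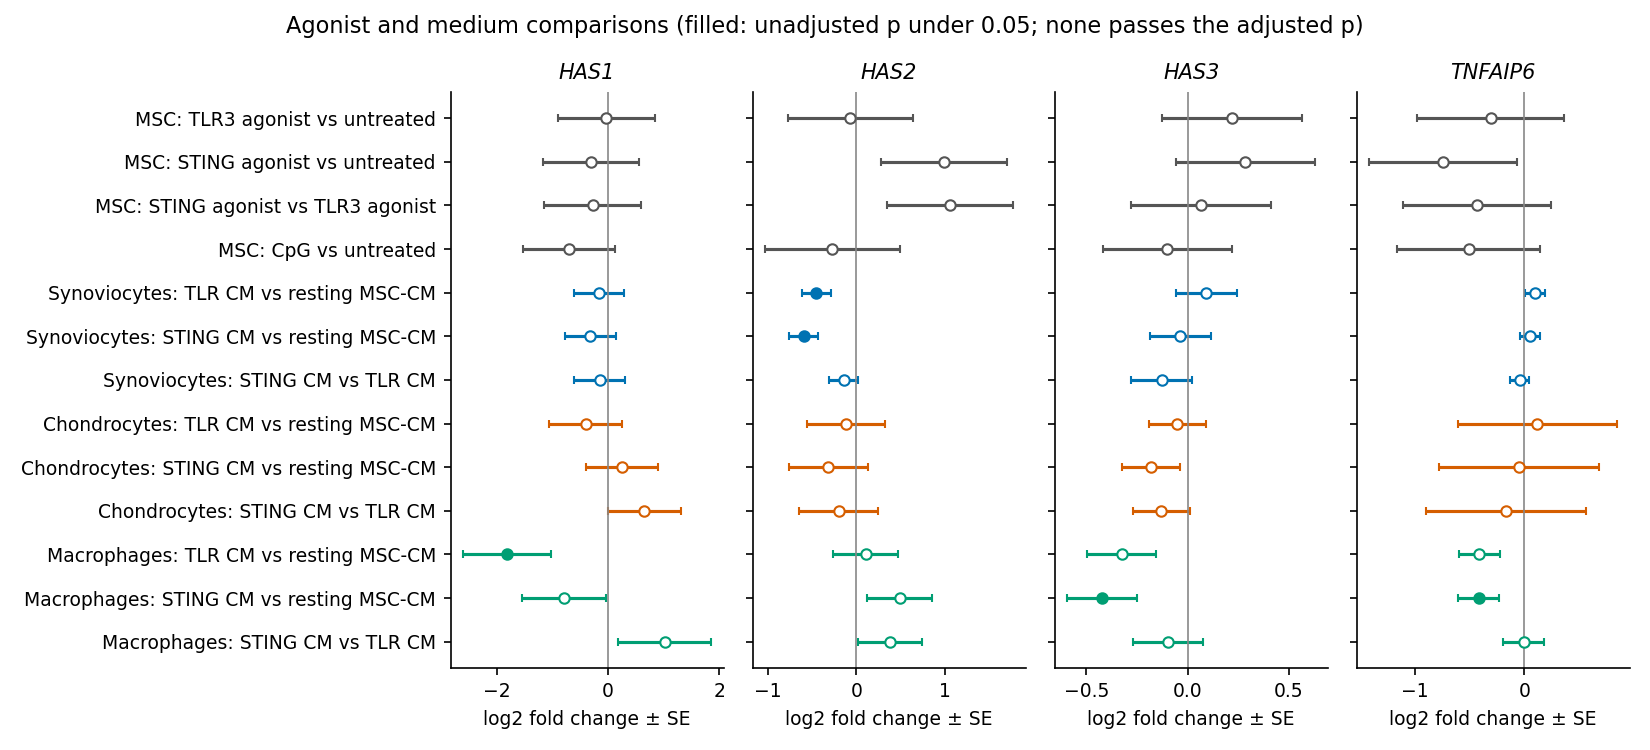
Log2 fold change ± SE from edgeR for each of the 4 genes in the 13 comparisons of agonist or medium, with filled symbols where the unadjusted p is under 0.05. The 5 filled symbols are HAS2 in synoviocytes with TLR- and STING-MSC-CM and HAS1, HAS3 and TNFAIP6 in macrophages, and none passes the adjusted p.

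Differences between donors were tested next. In a fit with donor and condition, 6 of 16 tests of the 4 genes for a difference between the 3 donors passed an adjusted p of 0.05. In MSC these were TNFAIP6 (adjusted p = 2.79e-05), HAS1 (2.05e-04) and HAS2 (0.00392), 3 of 4 genes where 55.9% of all genes passed. TNFAIP6 averaged 52.5 ± 15.7 CPM (SD, n = 4 conditions) in donor 92, 28.3 ± 3.52 in donor 99 and 14.7 ± 3.40 in donor PC. HAS1 followed the same order with 3.28 ± 0.923, 1.22 ± 0.291 and 0.775 ± 0.191 CPM, and HAS2 was highest in donor 99 at 35.3 ± 23.2 CPM against 10.9 ± 4.15 in donor 92 and 12.5 ± 5.02 in donor PC. HAS3 did not pass (adjusted p = 0.126). Without the libraries of donor 92, HAS1 no longer passed (adjusted p = 0.0896), while TNFAIP6 (0.00524) and HAS2 (0.00875) did.

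In chondrocytes TNFAIP6 (adjusted p = 2.97e-10) and HAS2 (2.57e-05) differed between the donors named for the medium, where 40.1% of all genes did. TNFAIP6 averaged 309 ± 33.9 CPM (SD, n = 3 media) for AG1, 279.97 ± 16.8 for PC and 66.1 ± 7.18 for ORC, and HAS2 5.47 ± 1.11, 4.81 ± 1.04 and 10.1 ± 0.503. TNFAIP6 was thus lowest and HAS2 highest with ORC. Without the ORC libraries neither passed (adjusted p = 0.546 and 0.603), and 0 of 13967 genes passed while 2270 had an unadjusted p under 0.05. All 12 IL-1 and TNF response genes also differed between donors in chondrocytes; their part in the result was not tested.

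In synoviocytes none of the 4 genes, and 0% of all genes, differed between donors in edgeR, with 413 genes at an unadjusted p under 0.05. The 0% hung on the ORC libraries. Without the ORC library with resting MSC-CM 710 genes passed, and without all ORC libraries 18, none of them one of the 4. TNFAIP6 there averaged 75.9 ± 0.798 CPM for AG1, 74.9 ± 8.27 for ORC and 82.9 ± 1.40 for PC. In macrophages 15.4% of all genes passed and of the 4 genes only HAS2 did (adjusted p = 0.0324), with 1.99 ± 0.394, 3.04 ± 0.837 and 3.80 ± 0.725 CPM for AG1, ORC and PC. That call for HAS2 was lost on leaving out any 1 of 6 of the 9 libraries (all but AG1 and ORC with resting MSC-CM and ORC with TLR-MSC-CM), with adjusted p-values from 0.0242 to 0.109 over the 9.

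Joint cell types were compared under resting MSC-CM. HAS2 was lower in macrophages than in synoviocytes (log2 fold change -1.66, SE 0.26, adjusted p = 1.78e-04) and than in chondrocytes (-1.59, SE 0.26, adjusted p = 2.42e-04), and no macrophage library reached the lowest value of either. Chondrocytes and synoviocytes did not differ beyond their spread in HAS2 (-0.07, SE 0.24, adjusted p = 0.914), or -0.35 (adjusted p = 0.308) without the ORC libraries. Of all genes, 71.6% passed between macrophages and synoviocytes (36.6% higher and 35.1% lower in macrophages) and 71.5% between macrophages and chondrocytes (36.6% higher and 34.9% lower), so a passed test was the common outcome there.

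TNFAIP6 was higher in chondrocytes than in synoviocytes (log2 fold change 1.49, SE 0.46, adjusted p = 0.0475), where 18.1% of all genes passed (8.31% higher and 9.84% lower in chondrocytes), and lower in macrophages than in chondrocytes (-1.14, SE 0.45, adjusted p = 0.0427). The chondrocyte library with ORC medium, at 57.9 CPM, lay below all 3 synoviocyte libraries. Without the ORC libraries the log2 fold changes were 1.82 (adjusted p = 1.06e-05) and -1.46 (adjusted p = 2.91e-06), and TNFAIP6 also passed between macrophages and synoviocytes (0.36, adjusted p = 0.0147, against 0.35 and 0.502 with all libraries). Leaving out any other single chondrocyte or synoviocyte library ended the first call, with log2 fold changes of 1.16 to 1.58 and adjusted p-values of 0.112 to 0.157. Leaving out the AG1 or PC chondrocyte library or any macrophage library ended the second.

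HAS1 and HAS3 passed in none of the 3 comparisons. The log2 fold change of HAS1 was -2.09 (SE 0.74, adjusted p = 0.0781) in chondrocytes and -1.71 (SE 0.72, adjusted p = 0.0534) in macrophages against synoviocytes, at the low counts given above, and the first was -1.23 (adjusted p = 0.284) without the ORC libraries. Between macrophages and chondrocytes HAS1 had 0.38 (SE 0.79, adjusted p = 0.684), a sign that turned without the ORC libraries (-0.63). HAS3 had 0.43 (SE 0.18, adjusted p = 0.0554) in macrophages against synoviocytes, 0.23 (SE 0.18, adjusted p = 0.444) in chondrocytes against synoviocytes and 0.20 (SE 0.18, adjusted p = 0.340) in macrophages against chondrocytes. The 4 genes together thus gave 4 calls in 12 tests, HAS2 and TNFAIP6 only.

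The genes around the synthases were read from fixed lists. Among 7 of 8 listed enzymes that make the sugar nucleotide precursors of hyaluronan, all 7 were lower in macrophages than in synoviocytes, with a median log2 fold change of -1.87 against 0.04 over all genes. All 7 were also lower in macrophages than in chondrocytes, with a median of -1.89 against 0.04. Over all genes, 35.1% were lower in macrophages than in synoviocytes and 34.9% lower than in chondrocytes at an adjusted p under 0.05. UGDH, which makes UDP-glucuronic acid, was 25.2 ± 3.04 CPM in macrophages, 90.6 ± 8.53 in synoviocytes and 100.2 ± 10.7 in chondrocytes (log2 fold changes -1.87, SE 0.12, and -2.00, SE 0.12). GFPT2, an isoform of the first enzyme of the hexosamine pathway, was 1.65 ± 0.655 CPM in macrophages, 89.8 ± 18.9 in synoviocytes and 381 ± 181 in chondrocytes. Between chondrocytes and synoviocytes GFPT2 (2.07, adjusted p = 0.00253) and PGM1 (0.80, adjusted p = 0.0420) were higher and GNPNAT1 (-0.70, adjusted p = 5.76e-04) was lower, 3 of 7, with a list median of 0.09 against 0 over all genes. The share of all genes that passed there was 18.1%.

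**Figure D5:**
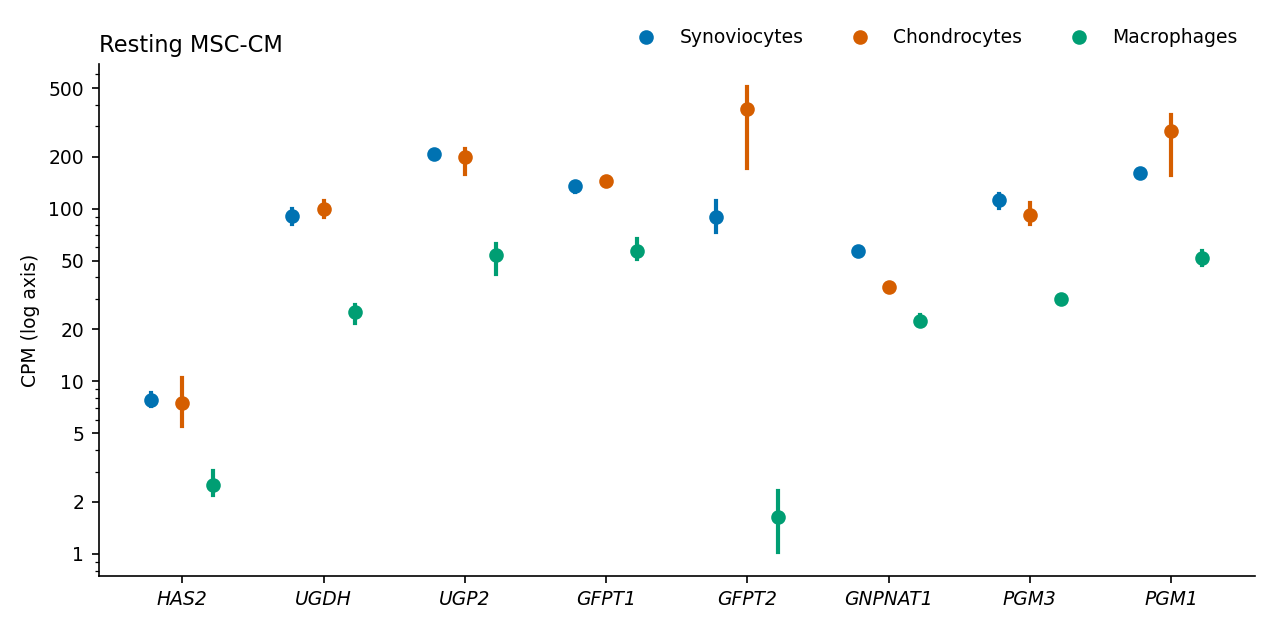
CPM (log axis) of HAS2 and the 7 precursor enzymes under resting MSC-CM; points are the mean of 3 libraries per cell type and vertical lines run from the lowest to the highest library. Every enzyme lies lower in macrophages than in the other cells, from GFPT2 (1.65 CPM against 89.8 and 381) to GNPNAT1 (22.3 CPM against 57.1 and 35.3).

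These enzymes also differed between the chondrocyte libraries by the donor of the medium, in 6 of 7, where 40.1% of all genes did. GFPT2 averaged 169 ± 7.47 CPM with ORC against 505 ± 38.9 with AG1 and 451 ± 55.03 with PC (adjusted p = 8.20e-09), and PGM1 166 ± 15.7 against 364 ± 17.2 and 339.6 ± 5.16 (adjusted p = 9.25e-09). UGP2, which makes UDP-glucose, was 158 ± 0.0589 against 210 ± 11.4 and 219 ± 3.44 CPM (adjusted p = 6.59e-05). PGM3, in the same pathway as GFPT2 and named after its values were seen, was higher with ORC at 106 ± 2.49 against 83.7 ± 0.987 and 84.5 ± 6.001 CPM, so the enzymes did not move one way. GFPT2 in chondrocytes was 164 CPM without and 472 CPM with cytokines, and PGM3 122 and 89.8 CPM. For GFPT2 and PGM3 the ORC libraries were on the side of the library without cytokines, as they were for TNFAIP6, whereas HAS2 was on the far side of the library with cytokines.

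Of the enzymes that break hyaluronan down, 6 of 9 listed were tested. HEXA, a lysosomal enzyme gene, was higher in macrophages than in synoviocytes (log2 fold change 1.00, SE 0.17) and than in chondrocytes (1.23, SE 0.17). CEMIP, a binding protein needed for hyaluronan breakdown at the cell surface, was 97.6 ± 29.7 CPM in macrophages against 2194 ± 589 in synoviocytes and 2079 ± 148 in chondrocytes (log2 fold changes -4.53, SE 0.28, and -4.43, SE 0.28). In all, 2 were higher and 3 lower in macrophages against synoviocytes, and 3 higher and 3 lower against chondrocytes, with list medians of 0.003 and 0.005. Over all genes 71.6% and 71.5% passed in these comparisons. Chondrocytes had more CEMIP2 (0.73, adjusted p = 0.00539) and less GUSB (-0.65, adjusted p = 0.0471) than synoviocytes, 2 of 6, with a median of -0.04. There 18.1% of all genes passed.

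Of 6 hyaluronan receptors, CD44, STAB1 and LAYN were higher and HMMR lower in macrophages than in either other cell type. CD44, the main surface receptor, was 1362 ± 116 CPM in macrophages, 510.4 ± 4.22 in synoviocytes and 439 ± 165 in chondrocytes. STAB1, a scavenger receptor of macrophages, was 62.1 ± 21.7 CPM there and near the floor elsewhere (0.112 ± 0.0343 and 0.0532 ± 0.0461 CPM), so no fold is given. The list medians were 0.16 and 0.47, and between chondrocytes and synoviocytes 1 of 6 passed (HMMR, -0.51, adjusted p = 0.0133) with a median of -0.45. Over all genes, 71.6% and 71.5% passed for macrophages against synoviocytes and against chondrocytes, and 18.1% for chondrocytes against synoviocytes. CD44 in chondrocytes was 259 ± 17.9 CPM with ORC medium against 545 ± 35.1 with AG1 and 528 ± 33.3 with PC (adjusted p = 9.97e-08).

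Of 13 of 15 listed genes of hyaluronan-binding matrix proteins and their cross-linking partners, 5 passed between chondrocytes and synoviocytes, with a median of 0.05. There 18.1% of all genes passed. ACAN, aggrecan, was higher in chondrocytes (15.2 ± 4.94 against 0.682 ± 0.221 CPM, log2 fold change 4.44), as was HAPLN4 (1.08). VCAN, versican, was lower (409.6 ± 235 against 2701 ± 154 CPM, -2.73). Lower too were ITIH5 (6.89 ± 2.31 against 120.4 ± 5.51 CPM, -4.13) and ITIH4 (-1.67), genes of the inter-alpha-inhibitor heavy chain family. Macrophages had 4 of 13 higher and 5 lower than synoviocytes and 5 higher and 3 lower than chondrocytes, where 71.6% and 71.5% of all genes passed. HAPLN1 was at 0 in the macrophages, and its fold is not given. It was near the floor in the other cells too, at up to 0.307 CPM in chondrocytes and 0.310 in synoviocytes with medium. VCAN in chondrocytes was 660.2 ± 27.9 CPM with ORC medium against 237 ± 15.9 with AG1 and 267 ± 32.3 with PC (adjusted p = 8.63e-10). None of the 4 lists had a gene that passed in the 13 comparisons of agonist or medium.

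The genes whose pattern was most like that of a member were named by the correlation of log2(CPM + 1), given as a description, since libraries share donors and cells. Over the 27 joint-cell libraries with medium, with the mean of each cell type taken off, TNFAIP6 was most like UPP1 (r = 0.968), NLRP3 (0.959) and RGS2 (0.953). Those 3 genes were also lowest in chondrocytes with ORC medium, where UPP1 averaged 14.2 ± 1.21 CPM against 123 ± 13.7 with AG1 and 100.04 ± 10.3 with PC. HAS2 was most like ALDH18A1 (0.846), ALDH1L2 (0.837) and JPT2 (0.836), and ALDH1L2 was 62.9 ± 9.20 CPM with ORC medium in chondrocytes against 17.0 ± 1.78 and 18.6 ± 1.70. HAS2 and TNFAIP6 had r = -0.584 with each other. For HAS3 the highest r were lower, with GTSF1 (0.651), PARVA (0.648) and SAP18 (0.643). GTSF1 was at 0 in all synoviocyte and chondrocyte libraries with medium, so its r rests on the macrophage libraries (11.8 to 14.5 CPM).

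Over the 12 MSC libraries, HAS1 was most like SAE1 (r = 0.973), CDCA7 (0.971) and POLE2 (0.964), and TNFAIP6 most like SEPHS1 (0.979), ENOPH1 (0.975) and YBX1 (0.975). HAS2 was most like SLCO4A1 (0.971), MEPCE (0.949) and CWC27 (0.938), and HAS3 most like PSMB7 (0.952), CAVIN3 (0.951) and AAMP (0.9501). HAS1 and TNFAIP6 had r = 0.881 with each other there, both being highest in donor 92.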

How the data were processed

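RNA of MSC and joint cells was sequenced. Per the labels and methods, the authors trimmed reads with cutadapt 1.12, aligned them with STAR to EquCab3.0 and counted them with HTSeq 0.11.0. The deposited values are raw counts per protein-coding gene. The largest counts are written to 3 significant digits (31 and 10 values in the joint-cell and MSC tables). The strand setting is not given in the sources used here, so antisense reads cannot be told apart.

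CPM was computed over total counts. Genes with at least 10 counts in all were tested with edgeR 4.0.16 (R 4.3.3, TMM, quasi-likelihood test, Benjamini-Hochberg adjustment). Alternatives were DESeq2 1.42.0, RLE, other filters, a prior count of 2, wider fits, the replicate block and leaving out libraries. Exact intervals and permutation tests used scipy 1.17.1. Fits were tested on simulated data. Named genes were the 6 genes looked up, per comparison, list and direction the 3 with the lowest p of those that passed, and the 3 of most like pattern (mean of at least 1 CPM); fold changes of the 4 genes were printed at an unadjusted p under 0.05 and between cell types. Genes, lists and rule were chosen with earlier results of these data known. Same-donor deviations correlated in MSC (median r = 0.842), chondrocytes (0.726) and macrophages (0.504) but not in synoviocytes (0.0863), and the donor names pair the samples. Genome positions, lengths and sequences were not used here. The values of 1 listed gene are not reported here.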

Additional observations from a re-analysis of the deposited data

How the results depend on the processing

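The number of the 4 genes called did not move in the 13 comparisons of agonist or medium, the 6 interactions or the donor test of synoviocytes under any alternative run. In the donor test of MSC it fell from 3 to 2 without donor 92 (HAS1 lost) and was 3 under the others. Between chondrocytes and synoviocytes it rose from 1 to 2 with DESeq2 and in 1 fit over 27 libraries (HAS1 added) and was 0 to 1 over single omissions. Between macrophages and synoviocytes it rose from 1 to 2 with RLE, DESeq2 and without the ORC libraries, to 3 with edgeR's filter on low counts and in the fit over 27 libraries, and was 1 to 3 over single omissions. Between macrophages and chondrocytes it fell from 2 to 1 with DESeq2 and was 1 to 2 over single omissions. Between medium donors it fell from 2 to 0 in chondrocytes without the ORC libraries, and in macrophages (1) it was 0 to 2. HAS2 in chondrocytes against synoviocytes turned to a log2 fold change of 0.04 or 0.11 without the AG1 or PC chondrocyte library (-0.39 to 0.11 over single omissions), and HAS1 in macrophages against chondrocytes to -0.63 without the ORC libraries or -0.30 without the ORC macrophage library (-0.30 to 0.83 over single omissions). With the replicate block, HAS2 in synoviocytes had -0.47 with TLR-MSC-CM and -0.62 with STING-MSC-CM, and no call changed for any of the 4 genes. Depth limits HAS1 in chondrocytes and macrophages.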
